A study of Mus musculus with 4 samples.

Results

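The sites described here are places in the mouse genome where BAP1, HCF1 and OGT each had a peak within the same short stretch of chromatin, but where the peaks were not centred on the same point. They were found by joining overlapping or book-ended peaks of the 3 deposited lists into merged regions and keeping those on chromosomes 1 to 19 that were under 5000 bp wide and held a peak of every protein. In each of these compact regions the highest-scoring peak of each list stood for its protein, with ties going to the wider peak and then to the lower start. A region was called an offset site where at least 1 pair of the 3 peak centres lay more than 250 bp apart, the centre being the midpoint between the start and the end of the peak. This gave 3387 offset sites out of 34834 merged regions in the series. The other 1950 compact regions, in which all pairs of centres lay within 250 bp, are called coinciding sites and serve as the comparison. The sites were chosen by measured values, namely the overlap, width, score and centre position of the peaks, so distances, scores, widths and edges are given below as descriptions and no test was run on them.

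The peaks came from ChIP-seq, in which DNA bound by a protein is pulled down with an antibody and sequenced, on bone marrow derived macrophages of C57BL/6 mice, primary cells grown in L929-conditioned medium and not treated further. For BAP1 an anti-FLAG antibody was used on macrophages of BAP1-3X Flag Tagged KI mice, which carry the tag on BAP1. HCF1 was precipitated with an anti-HCF1 antibody and OGT with an anti-OGT1 antibody, both from BAP1 WT macrophages, and the input DNA also came from BAP1 WT macrophages. The name of the BAP1 list refers to wild-type cells, whereas the labels give the knock-in, and the labels were followed. BAP1 is a nuclear deubiquitinase and tumour suppressor that removes ubiquitin from histone H2A. HCF1 is a cofactor without DNA-binding activity of its own that is brought to chromatin, often at promoters, by sequence-specific transcription factors. OGT adds the sugar O-GlcNAc to nuclear and cytoplasmic proteins, and it also cleaves HCF1 during HCF1 maturation. BAP1 binds HCF1 directly, and the 3 proteins can be isolated together.

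Each protein had 1 library, and no value has a replicate error. A difference between proteins cannot be told apart from a difference between libraries, and for BAP1 also from the different genotype of the mice. The lists held 17662 BAP1, 31421 HCF1 and 10337 OGT peaks. Positions are on the mouse build mm9. Each peak carries the score the authors deposited, whose definition is not stated, and levels are compared only as percentiles within each list. The read depth behind the lists is unknown. Shares are given with exact Clopper-Pearson 95% intervals, which treat sites as independent and cover counting error only. DNA fragments were size-selected between 175 and 225 bp, a little below the 250 bp that defined an offset. The centre of a peak is the middle of a called interval and not its point of highest signal, which was not analysed here.

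Offset sites were the more frequent kind of compact 3-protein region. They made up 3387 of 5337, or 63.5% (interval 62.2 to 64.8%). The farthest pair of centres lay a median of 510 bp apart in offset sites (quartiles 361 and 781 bp), against 142 bp in coinciding sites (quartiles 91.6 and 195.5 bp). It exceeded 500 bp in 1730 offset sites (51.1%, 49.4 to 52.8%), 1000 bp in 491 (14.5%, 13.3 to 15.7%) and 2000 bp in 39 (1.15%, 0.820 to 1.57%). The limit of 250 bp lay within a continuous range. The sites just inside it, on chromosome 2 from 25401577 to 25403214 and from 102783620 to 102785125, both had a farthest distance of 250.5 bp. Just outside it were a site on chromosome 11 from 96835555 to 96837033, at 250 bp, and a site on chromosome 1 from 58851631 to 58853111, at 249.5 bp.

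Among the 3 pairs, HCF1 and OGT were the most often apart. Their centres lay more than 250 bp from each other in 2421 offset sites (71.5%, 69.9 to 73.0%), compared with 2296 for BAP1 and OGT (67.8%, 66.2 to 69.4%) and 1962 for BAP1 and HCF1 (57.9%, 56.2 to 59.6%). The median distance between HCF1 and OGT centres was 365.5 bp in offset sites, against 84.8 bp in coinciding sites. For BAP1 and OGT the medians were 351 bp in offset sites and 85.0 bp in coinciding sites, and for BAP1 and HCF1 they were 289.5 bp in offset sites and 77.0 bp in coinciding sites. BAP1 and HCF1 were thus the pair that stayed closest in offset sites, while in coinciding sites the 3 medians differed by less than 10 bp. Neither direction along the chromosome prevailed beyond counting error. Where the pair was apart, HCF1 lay at the lower coordinate than OGT in 48.7% of sites (46.7 to 50.8%), BAP1 at the lower coordinate than OGT in 50.7% (48.6 to 52.8%), and BAP1 at the lower coordinate than HCF1 in 52.1% (49.9 to 54.3%).

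**Figure D1:**
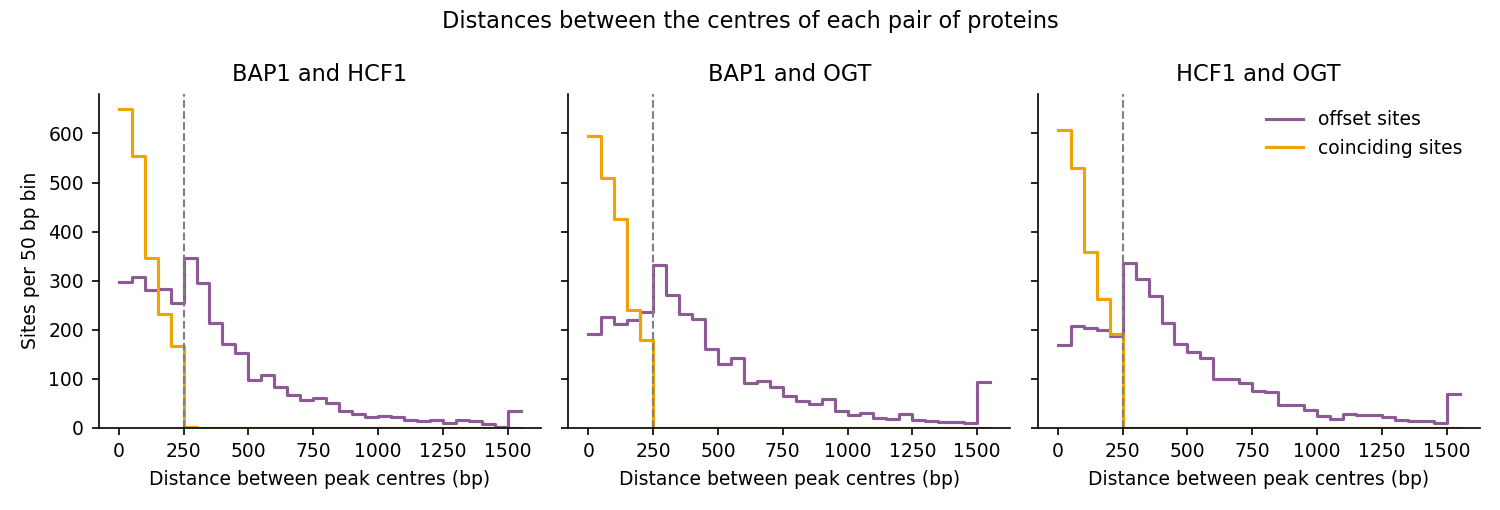
Number of sites per 50 bp bin of the distance between the peak centres of each pair of proteins, for offset and coinciding sites. The dashed line marks 250 bp and the last bin holds all sites at 1500 bp or more; in offset sites the BAP1 and HCF1 pair has the shortest median, 289.5 bp, and the HCF1 and OGT pair the longest, 365.5 bp.

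The offset sites fell into 5 arrangements. In 3 of them a single protein was displaced, lying over 250 bp from both others while those stayed within 250 bp of each other. OGT was the displaced protein most often, in 906 sites (26.7%, 25.3 to 28.3%), followed by HCF1 in 604 (17.8%, 16.6 to 19.2%) and BAP1 in 540 (15.9%, 14.7 to 17.2%). All 3 pairs were apart in 621 sites (18.3%, 17.0 to 19.7%). In the remaining 716 sites (21.1%, 19.8 to 22.6%) only 1 pair exceeded 250 bp, with the third protein within reach of both. The order of the displaced proteins was the same in sites without additional peaks. Among the 2174 offset sites with exactly 1 peak of each, OGT was displaced in 27.6% (25.7 to 29.5%), HCF1 in 18.3% (16.7 to 19.998%) and BAP1 in 14.9% (13.5 to 16.5%). Sites with all pairs apart were less frequent among them, at 12.1% (10.8 to 13.6%).

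**Figure D2:**
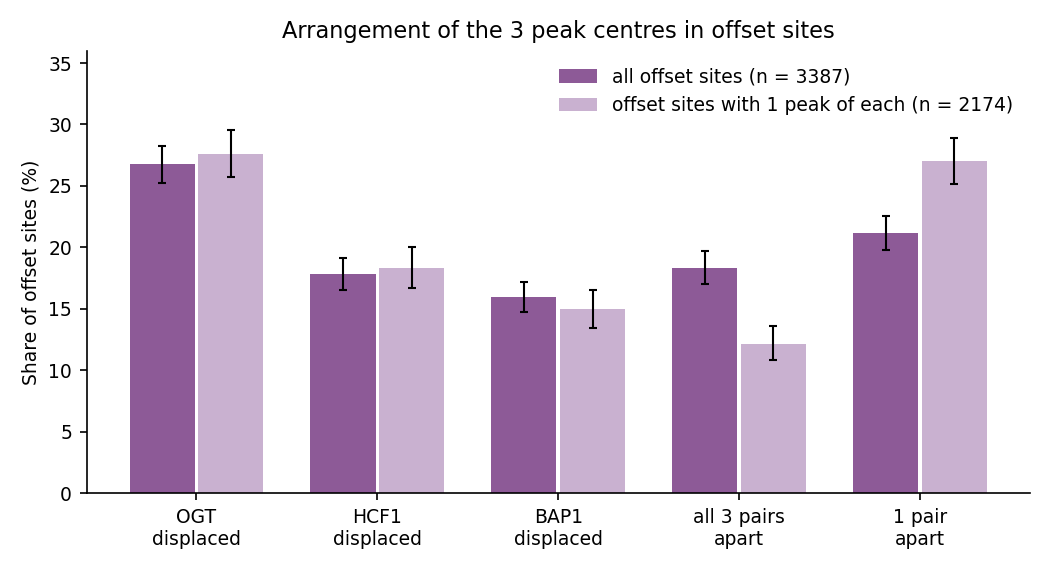
Share of offset sites in each arrangement of the 3 peak centres, for all 3387 offset sites and for the 2174 with exactly 1 peak of each protein. Bars are percentages and whiskers exact 95% intervals for counting error; OGT is the most frequent displaced protein in both sets, at 26.7% and 27.6%.

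Where OGT was displaced, its centre mostly lay within the peaks of both BAP1 and HCF1. The farthest centres were a median of 535.5 bp apart in these 906 sites, while the BAP1 and HCF1 centres were a median of 85.5 bp from each other (quartiles 43.5 and 144.5 bp). The OGT peak was the narrower one, with a median of 989 bp, whereas BAP1 peaks had a median of 1882 bp and HCF1 peaks of 1727 bp. In 704 of the sites (77.7%, 74.9 to 80.4%) the OGT centre was inside both the BAP1 and the HCF1 peak, and in 79 (8.72%, 6.96 to 10.8%) it was inside neither. With every site turned so that OGT lay to the right, OGT peaks covered the point 500 bp to the right of the BAP1 and HCF1 midpoint in 90.7% of sites and the point 500 bp to the left in 8.17%. BAP1 and HCF1 were nearly symmetric there, with 94.2% on the right and 95.03% on the left for BAP1, and 83.7% and 83.8% for HCF1. At 1000 bp to the right OGT covered 51.8% of sites, BAP1 45.1% and HCF1 37.2%. The side on which the displaced protein lies was fixed by the turning, here and in the HCF1-displaced and BAP1-displaced sites below, so its higher coverage on that side is no result.

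A site on chromosome 5 from 22937621 to 22941785 shows this form. BAP1 covered 22937648 to 22941785 with a score of 1107.43 and HCF1 covered 22937705 to 22941738 with a score of 2361.19, and their centres were 5 bp apart. The OGT peak, with a score of 733.7, started at nearly the same place, at 22937621, but ended at 22940268, so that its centre lay 777 bp below that of HCF1. All 3 scores were high within their lists, at percentiles of 99.6, 99.7 and 98.8. On chromosome 16 from 44137694 to 44141442 the highest OGT peak covered 44137757 to 44140172 with a score of 805.33. Its centre was 547.5 bp from HCF1 and 686 bp from BAP1. That site held a second OGT peak, which reached the end of the site, beyond the ends of the BAP1 and HCF1 peaks. BAP1 had 1 peak there with a score of 856.4 and HCF1 had 1 with a score of 2012.69. A further site on chromosome 16, from 91405021 to 91409016, had an OGT score of 518.52 and an OGT centre 510.5 bp from HCF1 and 546.5 bp from BAP1, where the BAP1 and HCF1 centres were 36 bp apart.

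Where HCF1 was displaced, the HCF1 peak was in the median the longest of the 3. Its median width in these 604 sites was 1808 bp, against 1568.5 bp for BAP1 and 1043 bp for OGT, and it was the widest of the 3 peaks in 349 sites (57.8%, 53.7 to 61.8%). HCF1 was the widest in 1318 of all offset sites (38.9%, 37.3 to 40.6%) and in 438 coinciding sites (22.5%, 20.6 to 24.4%). BAP1 and OGT centres lay a median of 93.5 bp from each other. The HCF1 centre was inside both other peaks in 331 sites (54.8%, 50.7 to 58.8%). At the midpoint of BAP1 and OGT the HCF1 peak covered 85.6% of sites, and 1000 bp toward the displaced side it covered 80.8%, where BAP1 covered 29.1% and OGT 9.60%. The highest-ranked example was on chromosome 7 from 87529716 to 87534231. HCF1 covered 87530777 to 87533988 there with a score of 3100, a value that 44 HCF1 peaks of the list share. BAP1 covered the whole site with a score of 1381.86, and the OGT peak from 87530904 to 87533341 scored 699.69. The HCF1 centre was 409 bp from BAP1 and 260 bp from OGT, so this site only just met the limit for the second pair, and here the BAP1 peak was the wider one. On chromosome 14 from 19069847 to 19072677 HCF1 started before the others, at 19069847, against 19070311 for BAP1 and 19070174 for OGT. Its centre was 421.5 bp from BAP1 and 363 bp from OGT, with BAP1 and OGT 58.5 bp apart. A site on chromosome 9 from 20970159 to 20974009 had HCF1 at 287 bp from BAP1 and 273.5 bp from OGT.

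Where BAP1 was displaced, BAP1 had the longest peak in the median, as it also did in OGT-displaced and in coinciding sites. Its median width in these 540 sites was 1953 bp, against 1480 bp for HCF1 and 1133.5 bp for OGT, and it was the widest of the 3 peaks in 348 (64.4%, 60.2 to 68.5%). BAP1 was the widest in 1827 of all offset sites (53.9%, 52.2 to 55.6%), in 553 OGT-displaced sites (61.0%, 57.8 to 64.2%) and in 1343 coinciding sites (68.9%, 66.8 to 70.9%). The HCF1 and OGT centres were a median of 92.5 bp apart. The BAP1 centre lay inside both other peaks in 290 sites (53.7%, 49.4 to 58.0%) and inside neither in 108 (20%, 16.7 to 23.6%). A displaced HCF1 was inside neither in 13.4% (10.8 to 16.4%) and a displaced OGT in 8.72%. These shares depend on the widths of the other 2 peaks, which in the median were larger where OGT was displaced. At 1000 bp toward the displaced side, BAP1 covered 90.4% of these sites, HCF1 30.4% and OGT 13.9%. More than 1 HCF1 peak was found in 180 of these 540 sites (33.3%, 29.4 to 37.5%). The same was found in 219 of 621 sites with all pairs apart (35.3%, 31.5 to 39.2%), 136 of 604 HCF1-displaced sites (22.5%, 19.2 to 26.1%), 174 of 906 OGT-displaced sites (19.2%, 16.7 to 21.9%) and 99 of 716 sites with only 1 pair apart (13.8%, 11.4 to 16.6%). More than 1 OGT peak was found in 18.3% of OGT-displaced, 13.1% of BAP1-displaced and 10.8% of HCF1-displaced sites. It was found in 28.5% of sites with all pairs apart and 6.28% of those with only 1 pair apart. On chromosome 15 from 38228118 to 38232982 the highest BAP1 peak, 38229900 to 38232982 with a score of 925.83, was centred 1196 bp above HCF1 and 1095 bp from OGT. HCF1 scored 1891.98 there and OGT 595.69, with their centres 101 bp apart. The site held 2 BAP1 and 2 OGT peaks. A site with 1 peak of each, on chromosome 9 from 40607269 to 40611089, had BAP1 587.5 bp below HCF1 and 517 bp from OGT, where BAP1 scored 642.77, HCF1 1812 and OGT 645.95. On chromosome 19 from 3934161 to 3937405 BAP1 began at 3934161, ahead of HCF1 at 3934947 and OGT at 3934956, and its centre was 434 bp from HCF1 and 320 bp from OGT. BAP1 scored 1169.65 there, HCF1 1166.23 and OGT 616.55.

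**Figure D3:**
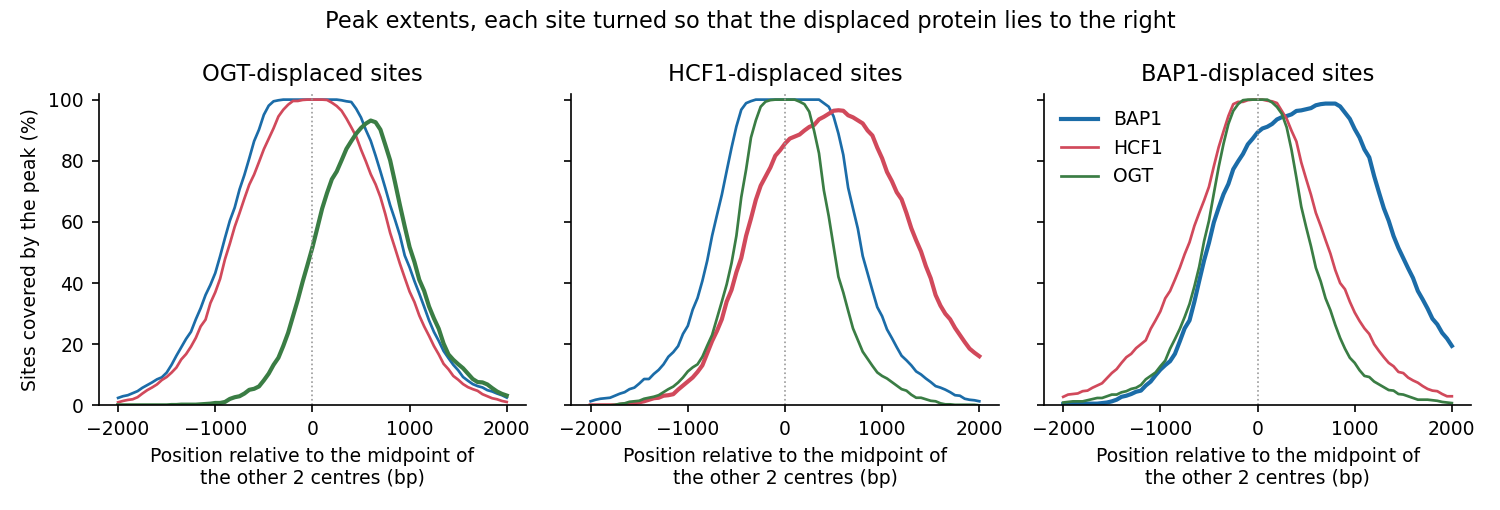
Share of sites covered by the peak of each protein, by position relative to the midpoint of the other 2 centres, with each site turned so that the displaced protein lies to the right. At 1000 bp to the right the displaced protein covers the most sites in each panel, 51.8% for OGT, 80.8% for HCF1 and 90.4% for BAP1, a side that the turning fixed.

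The 621 sites with all pairs apart were the most spread out and the most crowded. Their farthest centres were a median of 1028 bp apart (quartiles 778.5 and 1340.5 bp). In only 264 of them (42.5%, 38.6 to 46.5%) did each protein have exactly 1 peak, against 2174 of all 3387 offset sites (64.2%, 62.5 to 65.8%). OGT was the protein in the middle in 106 (17.1%, 14.2 to 20.3%), BAP1 in 253 (40.7%, 36.9 to 44.7%) and HCF1 in 262 (42.2%, 38.3 to 46.2%). The same order of OGT below the others was seen over all offset sites, with OGT in the middle of 809 (23.9%, 22.5 to 25.4%), against 602 coinciding sites (30.9%, 28.8 to 33.0%). The highest-ranked site of this kind, on chromosome 17 from 34166387 to 34171315, had HCF1 in the middle. Its BAP1 centre lay 1012 bp above HCF1 and its OGT centre 398 bp below. BAP1 scored 901.84 there, HCF1 3100, the shared value given above, and OGT 609.64. On chromosome 7 from 134620124 to 134625002 HCF1 was again between the others, with BAP1 415 bp below it and OGT 1119.5 bp above. OGT was in the middle of a site on chromosome 19 from 8892673 to 8896287, where BAP1 and HCF1 were 561 bp apart.

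The 5 offset sites with the largest distances all belonged to this arrangement, and in none of them did the 3 chosen peaks share a base. The site on chromosome 11 from 119213096 to 119217738 had HCF1 and OGT centres 3229 bp apart and held 2 BAP1, 3 HCF1 and 2 OGT peaks. Its BAP1 peak scored 553.08, its HCF1 peak 217.23 and its OGT peak 104.1. BAP1 and OGT were 2832.5 bp apart on chromosome 2 from 152933662 to 152938223, where an HCF1 peak of 4013 bp covered both of their centres. HCF1 and OGT were 2704 bp apart on chromosome 11 from 50037067 to 50041052. On chromosome 7 from 148619948 to 148624024 BAP1 and OGT were 2687.5 bp apart. There the BAP1 peak was weak, with a score of 52.97, while HCF1 scored 1426.8 over 3932 bp and OGT 162.64. The last of the 5, on chromosome 4 from 140516469 to 140521405, had BAP1 and OGT 2655.5 bp apart. The lowest percentile among the 3 peaks of these sites ranged between 4.57 and 60.8, and each site held 2 OGT peaks.

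The sites with only 1 pair apart were the most compact of the offset sites. Their farthest distance was a median of 307 bp (quartiles 274.5 and 353 bp) and the 3 peaks shared a base in all 716. HCF1 and OGT were the pair apart in 290 (40.5%, 36.9 to 44.2%), BAP1 and OGT in 229 (32.0%, 28.6 to 35.5%) and BAP1 and HCF1 in 197 (27.5%, 24.3 to 30.9%). OGT thus belonged to the separated pair most often in this arrangement too.

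The peaks of an offset site mostly overlapped. They shared at least 1 base in 3087 offset sites (91.1%, 90.1 to 92.1%), and the stretch common to all 3 had a median of 851 bp in these offset sites, against 833 bp in coinciding sites. What differed was the DNA around that shared stretch. The merged region had a median width of 2350 bp in offset sites (quartiles 1844 and 3055 bp), against 1517.5 bp in coinciding sites (quartiles 1207 and 1933 bp). A merged region has to be wide enough to hold the offset, so part of this difference follows from the rule. Between BAP1 and HCF1 peaks that were apart, the usual form was a stagger, in which each peak ran more than 100 bp beyond the other at opposite ends. It was found in 989 of 1962 such pairs (50.4%, 48.2 to 52.6%), against 165 coinciding sites (8.46%, 7.26 to 9.79%). A stagger puts the centres of a pair more than 100 bp apart, while in coinciding sites the median distance of every pair was below 100 bp. The lower staggered shares in coinciding sites, here and for OGT below, thus follow largely from the rule. In 472 separated pairs (24.1%, 22.2 to 26.0%) the peaks had 1 edge within 100 bp of each other. OGT peaks were often nested within BAP1 peaks. The OGT peak lay inside BAP1 with more than 100 bp to spare at both ends in 742 of 2296 pairs (32.3%, 30.4 to 34.3%), against 998 coinciding sites (51.2%, 48.9 to 53.4%). It was staggered with BAP1 in 836 separated pairs (36.4%, 34.4 to 38.4%), against 119 coinciding sites (6.10%, 5.08 to 7.26%). Of the 2421 separated HCF1 and OGT pairs, 972 were staggered (40.1%, 38.2 to 42.1%), 721 shared an edge (29.8%, 28.0 to 31.6%) and OGT was nested in HCF1 in 515 (21.3%, 19.7 to 23.0%). The staggered shares depended on the tolerance. With 200 bp in place of 100 bp they were 33.6% for BAP1 and HCF1, 26.4% for BAP1 and OGT and 25.4% for HCF1 and OGT, and with 50 bp they were 56.2%, 42.0% and 48.3% for the same pairs. Pairs without a common base were few, with 182 for HCF1 and OGT (7.52%, 6.50 to 8.64%), 114 for BAP1 and OGT (4.97%, 4.11 to 5.93%) and 28 for BAP1 and HCF1 (1.43%, 0.9503 to 2.06%).

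Over all widths, additional peaks of the same protein were more frequent in offset sites. HCF1 had more than 1 peak in 808 offset sites (23.9%, 22.4 to 25.3%), against 182 coinciding sites (9.33%, 8.08 to 10.7%). OGT had more than 1 in 524 offset sites (15.5%, 14.3 to 16.7%), against 48 coinciding sites (2.46%, 1.82 to 3.25%), and BAP1 in 193 offset sites (5.70%, 4.94 to 6.53%), against 14 coinciding sites (0.718%, 0.393 to 1.20%). Offset sites were also wider, and a further peak can itself widen the merged region. Of the 1433 compact regions with 4 or more peaks, 1213 were offset (84.6%, 82.7 to 86.5%), against 55.7% of those with exactly 1 peak of each. At 2000 to 2499 bp 76.9% of all compact regions were offset, and 75.8% of those with 1 peak of each, which are part of them. At 4000 to 4999 bp these shares were 94.9% and 89.6%. If any peaks of the 3 lists in a site could be combined, 68 offset sites (2.01%, 1.56 to 2.54%) held a set with all centres within 250 bp. The 2174 offset sites with exactly 1 peak of each had no other set to choose, so only the remaining 1213 could hold one. Where HCF1 had several peaks, the next HCF1 peak scored a median of 35.9% of the highest and was centred 1295 bp away. Such a lower-scoring HCF1 peak was nearer than the highest to the OGT centre in 258 of the 808 sites (31.9%, 28.7 to 35.3%) and nearer to the BAP1 centre in 220 (27.2%, 24.2 to 30.4%). Where OGT had several peaks, the next peak scored a median of 61.0% of the highest. A lower-scoring OGT peak was nearer to the BAP1 centre in 215 of 524 sites (41.0%, 36.8 to 45.4%) and nearer to both other centres in 133 (25.4%, 21.7 to 29.3%).

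The strongest offset sites, ranked by the lowest of their 3 within-list score percentiles, had at least 1360 bp common to the 3 peaks in each of the first 10. In the first, on chromosome 1 from 182777683 to 182781970, BAP1 scored 905.0, HCF1 1831.82 and OGT 905.73, all at percentiles of 99.2 or 99.3 in their lists. The peaks shared 3607 bp, and only HCF1 and OGT were apart, by 282 bp. Sites 2 and 3 were the OGT-displaced ones on chromosomes 16 and 5 given above, sites 4 and 8 were HCF1-displaced, sites 7 and 10 were BAP1-displaced and site 5 had all pairs apart. Site 6, on chromosome 17 from 35377027 to 35381075, had BAP1 and OGT 259 bp apart, where BAP1 scored 675.53, HCF1 2050.75 and OGT 793.19. Site 9, also on chromosome 17, from 29229864 to 29233761, had BAP1 and OGT 449.5 bp apart on either side of HCF1, where BAP1 scored 881.81, HCF1 1460.86 and OGT 576.47. The 10 sites thus covered every arrangement. Of these 10, picked by score, 3 lay on chromosome 17, which held 211 of all 3387 offset sites.

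**Figure D4:**
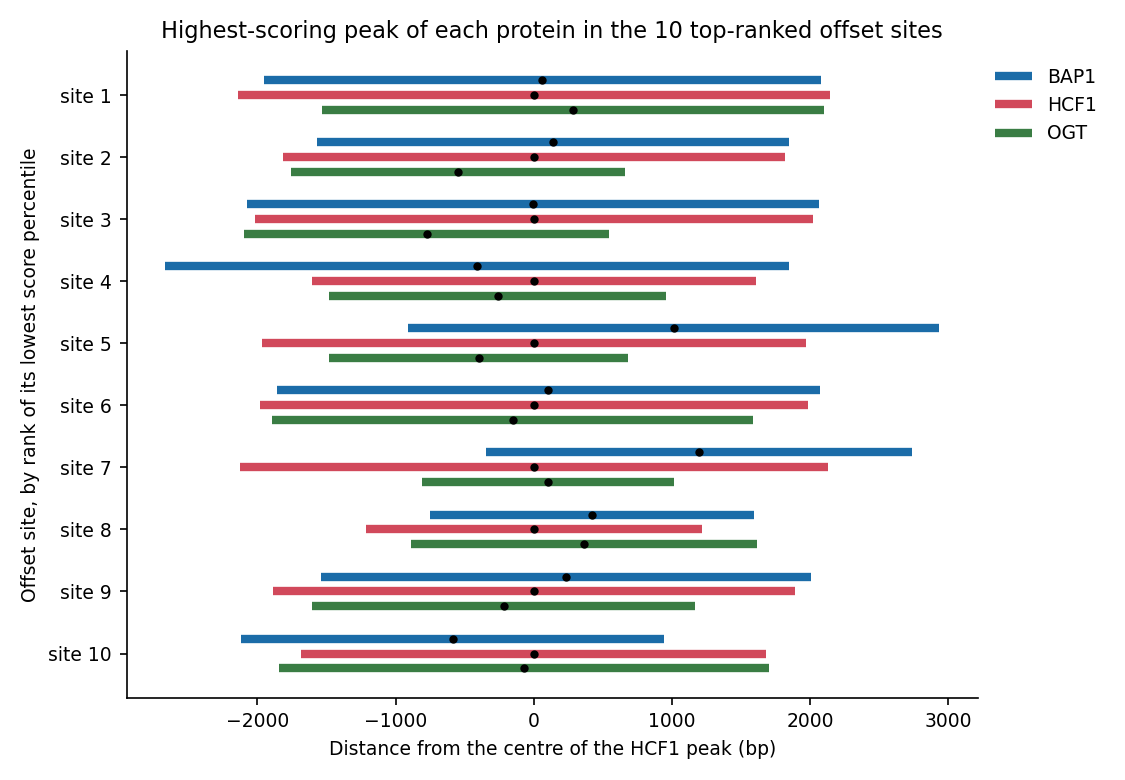
Extent of the highest-scoring peak of each protein (bars) and its centre (dots) in the 10 offset sites ranked by their lowest score percentile, placed by distance from the HCF1 centre in bp. The 3 peaks overlap in each site, by 3607 bp in site 1 and by 1360 bp in site 7, while their ends and centres fall at different points.

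Offset sites were the rule among wide regions and the exception among narrow ones. The width of a region limits how far apart the centres can lie, so part of this follows from the rule. Of the compact 3-protein regions under 1000 bp, 6 of 158 were offset (3.797%, 1.41 to 8.08%). The share was 26.6% (23.9 to 29.3%) between 1000 and 1499 bp, 58.8% (56.2 to 61.4%) between 1500 and 1999 bp and 76.9% (74.3 to 79.4%) between 2000 and 2499 bp. It reached 94.9% (91.6 to 97.2%) between 4000 and 4999 bp. Regions with exactly 1 peak of each protein followed nearly the same course, with 75.8% (72.6 to 78.8%) between 2000 and 2499 bp and 89.6% (79.7 to 95.7%) between 4000 and 4999 bp. The farthest distance, which the rule set, was a median of 22.8% of the region's width in offset sites, against 8.81% in coinciding sites.

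**Figure D5:**
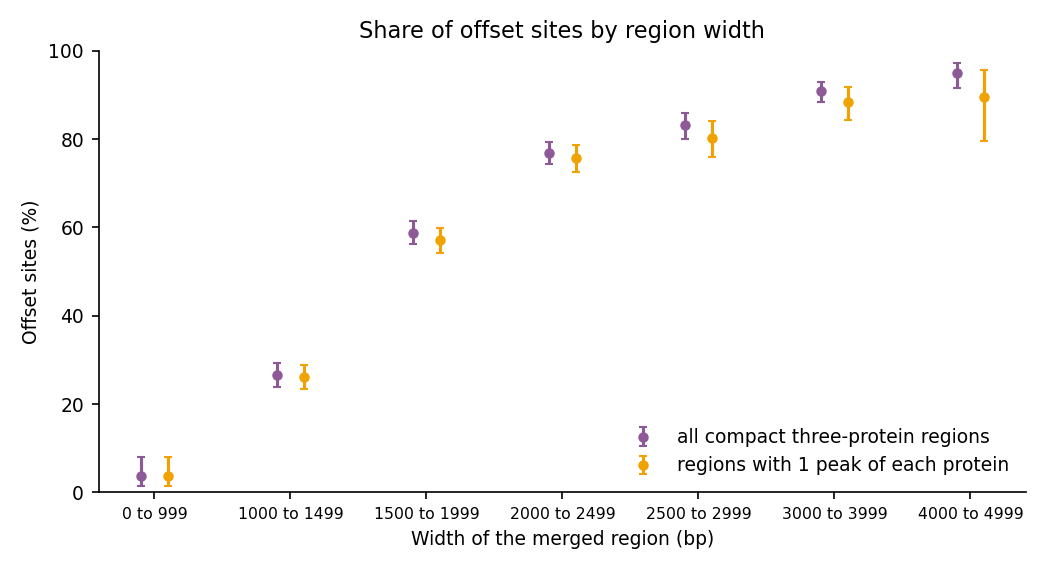
Share of compact 3-protein regions that were offset, by width of the merged region in bp, for all such regions and for those with exactly 1 peak of each protein. Points are percentages and whiskers exact 95% intervals for counting error. The share is 3.797% under 1000 bp and 94.9% between 4000 and 4999 bp, a rise that follows in part from the rule.

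Over all widths, offset sites carried higher HCF1 and BAP1 scores than coinciding sites, and about the same OGT scores. The HCF1 peak stood at a median percentile of 87.8 in offset sites, against 78.7 in coinciding sites, and the BAP1 peak at 76.8 in offset sites, against 65.6 in coinciding sites. The OGT peak stood at 60.04 in offset sites, against 58.7 in coinciding sites. Within bins of region width the OGT score was lower in offset sites throughout. For regions of 2000 to 2499 bp the OGT percentile was a median of 58.4 in offset sites, against 70.8 in coinciding sites, and the OGT peak was a median of 1031.5 bp wide in offset sites, against 1345 bp in coinciding sites. The other bins had the same order for OGT, with 35.4 in offset against 49.6 in coinciding sites under 1500 bp and 49.7 in offset against 60.8 in coinciding sites at 1500 to 1999 bp. At 2500 to 2999 bp it was 65.2 in offset against 76.7 in coinciding sites, and at 3000 to 4999 bp it was 74.9 in offset against 87.1 in coinciding sites. The medians of BAP1 and HCF1 differed by less than that of OGT in each bin, and in either direction. Under 1500 bp the BAP1 median was 50.4 in offset sites, against 48.1 in coinciding sites, and the HCF1 median was 66.3 in offset sites, against 67.3 in coinciding sites. At 1500 to 1999 bp the BAP1 median was 66.1 in offset sites, against 74.9 in coinciding sites, and the HCF1 median was 79.7 in offset sites, against 83.8 in coinciding sites. In regions of 2000 to 2499 bp the BAP1 median was 77.9 in offset sites, against 81.9 in coinciding sites, and the HCF1 median was 87.5 in offset sites, against 90.7 in coinciding sites. At 2500 to 2999 bp BAP1 stood at 84.7 in offset sites, against 89.9 in coinciding sites, and HCF1 at 91.6 in offset sites, against 91.2 in coinciding sites. At 3000 to 4999 bp BAP1 stood at 88.4 in offset sites, against 88.3 in coinciding sites, and HCF1 at 93.9 in offset sites, against 96.2 in coinciding sites. Score and width are linked within each list and both enter the rule, so these values were not tested. Among compact 3-protein regions whose BAP1 peak stood at or below percentile 20, 53.0% (48.0 to 57.9%) were offset, and among those above percentile 90 the share was 75.15% (72.6 to 77.6%). For OGT the same shares were 60.5% (56.6 to 64.2%) and 66.6% (62.7 to 70.3%). For HCF1 the lowest share, 44.4% (40.1 to 48.9%), was found between percentiles 40 and 60 and the highest, 74.3% (72.3 to 76.2%), above percentile 90.

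Peaks outside the site were counted as well, from the same lists. An HCF1 peak lay within 2 kb of the edge of 1386 offset sites (40.9%, 39.3 to 42.6%), against 647 coinciding sites (33.2%, 31.1 to 35.3%). For BAP1 the shares were 20.6% (19.3 to 22.0%) in offset sites and 18.0% (16.3 to 19.8%) in coinciding sites, and for OGT they were 13.3% (12.2 to 14.5%) in offset sites and 13.4% (11.9 to 15.0%) in coinciding sites. The HCF1 difference over all widths had no steady direction within bins of region width. Under 1500 bp the shares were 31.2% (25.9 to 36.8%) in offset sites and 32.3% (29.4 to 35.4%) in coinciding sites, and at 3000 to 4999 bp they were 51.4% (48.1 to 54.7%) in offset sites and 53.2% (41.5 to 64.7%) in coinciding sites. At 1500 to 1999 bp they were 36.1% (32.8 to 39.6%) in offset sites and 29.0% (25.3 to 32.9%) in coinciding sites. At 2000 to 2499 bp they were 36.5% (33.2 to 39.9%) in offset sites and 38.2% (32.1 to 44.6%) in coinciding sites. Between 2500 and 2999 bp they were 42.8% (38.7 to 46.9%) in offset sites and 36.4% (27.8 to 45.8%) in coinciding sites. At sites with a displaced BAP1, the nearest outside HCF1 peak within 2 kb lay on the side BAP1 had moved to in 77 of 246 cases (31.3%, 25.6 to 37.5%). At sites with a displaced HCF1 it lay on the side HCF1 had moved to in 140 of 229 (61.1%, 54.5 to 67.5%). Within 1 kb and 5 kb these shares were 29.2% and 35.0% for BAP1, and 63.8% and 59.3% for HCF1. A different count, of the nearest other HCF1 peak inside or outside the site, had the opposite direction, with 191 of 324 (59.0%, 53.4 to 64.4%) for BAP1 and 135 of 307 (43.97%, 38.3 to 49.7%) for HCF1. Distances ran from the edges of the merged region in the first count and from the edges of the highest-scoring HCF1 peak in the second. A site tends to reach farther on the displaced side, where an HCF1 peak can be joined to it and then not count as outside. Neither count is thus independent of the rule, and the cause of the difference between the counts was not tested.

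Offset sites were found on all 19 autosomes. Their lowest share of the compact 3-protein regions was on chromosome 16, with 95 of 176 (54.0%, 46.3 to 61.5%), and the highest on chromosome 1, with 200 of 290 (69.0%, 63.3 to 74.2%). The intervals of these chromosomes did not overlap, but the pair was picked as the lowest and highest of 19. Windows of 1 Mb held a median of 2 offset sites where they held any. The most, 24 of 31 compact regions, lay on chromosome 10 from 80000001 to 81000000, followed by 23 of 31 on chromosome 17 from 35000001 to 36000000. The kind of a site differed little with the kind of its neighbour. Where another compact 3-protein region followed within 10 kb, it was offset in 351 of 526 cases after an offset site (66.7%, 62.5 to 70.8%) and in 193 of 301 cases after a coinciding site (64.1%, 58.4 to 69.5%).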

How the data were processed

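The authors deposited 1 peak list per ChIP library, with the start, the end and a score for each peak. GSNAP, MACS 1.4 and the mouse build mm9 are named per the submitters' processing notes. Neither their settings nor the meaning of the score is stated there or in the labels. Libraries were amplified for 18 PCR cycles, per the labels' protocols. Scores were turned into percentiles within each list, since read depth is unknown and score levels of different lists cannot be compared. Starts were read as counted from 0 and positions are printed counted from 1. Merging, classification and intervals were computed in Python 3.11.15 with pandas 2.3.3, numpy 2.4.6 and SciPy 1.17.1. The classification was tested on simulated sites. The sites named are the 10 with the highest lowest percentile, the 5 with the largest distance, the 3 highest-ranked of each displaced arrangement and of the sites with all pairs apart, and those nearest to the limit. The sites and rules were chosen with earlier results of these data known. No mm9 sequence or annotation was used, so genes, promoters and motifs, which had been planned, were not analysed here. The input library had no list of its own in this work.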

Additional observations from a re-analysis of the deposited data

How the results depend on the processing

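OGT was displaced more often than HCF1, and HCF1 more often than BAP1, under every alternative run. With a limit of 500 bp the shares of HCF1 and BAP1 differed only in the second decimal. With a limit of 100 bp in place of 250 bp, 89.4% of compact regions were offset, the median farthest distance was 381 bp, OGT, HCF1 and BAP1 were displaced in 20.3%, 14.7% and 14.1%, and 71.1% had 1 peak of each. With 150 bp these were 79.9%, 424 bp, 23.7% for OGT and 68.8%. With 500 bp there were 1730 offset sites, 32.4% of compact regions, with a median of 771 bp, HCF1 displaced in 14.5%, BAP1 in 14.5% and 49.4% with 1 peak of each. A score of at least 100 left 1492 offset sites, 67.2% of compact regions, with OGT displaced in 25.2% and 80.4% with 1 peak of each. With the 3 closest peaks of a site the median was 482.5 bp and BAP1 was displaced in 17.9%. Regions under 3000 bp gave 57.2%, a median of 446 bp, OGT displaced in 29.3% and 74.2% with 1 peak of each. Requiring a base common to the 3 peaks gave 61.3%, 478 bp and 67.6%. Joining peaks within 200 bp left 56.1% with 1 peak of each. After the data were seen, sites with 1 peak of each were taken alone, which gave 2174 offset sites, 55.7% of such regions and a median of 435 bp. With edge tolerances of 200 and 50 bp, also added later, the staggered share was 33.6% and 56.2% of separated BAP1 and HCF1 pairs, 26.4% and 42.0% of BAP1 and OGT pairs, and 25.4% and 48.3% of HCF1 and OGT pairs. Using the widest peaks gave 63.7% offset and not joining book-ended peaks gave 63.4%, with the other values as little changed. Other windows around start sites and motifs were not run, since they need an mm9 annotation or genome. No replicate could be left out. No paired analysis was possible because there was 1 library for each protein. A peak ends where its signal meets the calling threshold, and the part that depth plays in the position of a centre was not tested.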

Other observations

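The rule applies to chromosomes 1 to 19. On the X chromosome, 14 of 33 compact 3-protein regions had offset centres (42.4%, 25.5 to 60.8%), against 63.5% on the autosomes. OGT was the displaced protein in 6 of these 14 and the farthest centres lay a median of 607 bp apart. The offset share rises with region width, which was not compared between the X chromosome and the autosomes, and the difference was not tested. At sites with a displaced HCF1, the nearest other OGT peak within 2 kb, inside or outside the site, lay on the side HCF1 had moved to in 90 of 115 cases (78.3%, 69.6 to 85.4%), and in 41 of 76 (53.9%, 42.1 to 65.5%) when outside OGT peaks alone were counted. The nearest other BAP1 peak lay there in 94 of 142 (66.2%, 57.8 to 73.9%). At sites with a displaced OGT, the nearest other HCF1 peak lay on the OGT side in 234 of 400 (58.5%, 53.5 to 63.4%), and in 156 of 316 (49.4%, 43.7 to 55.0%) when outside peaks alone were counted. The nearest other OGT peak at such sites lay on the side OGT had moved to in 51 of 236 (21.6%, 16.5 to 27.4%). With outside OGT peaks alone this was 51 of 107 (47.7%, 37.9 to 57.5%). A site tends to reach farther on the displaced side, because the displaced peak is part of it. The side of peaks inside the site is therefore partly set by the merging. These counts were chosen after the values were seen and were not tested.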
